A study of Mus musculus with 9 samples.

Results

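The distal convoluted tubule and the connecting tubule follow the thick ascending limb of the kidney's nephron, and 10 genes that serve salt, magnesium and calcium transport there were followed across 9 whole-kidney libraries. They were chosen by name, for their known function, but with earlier results of these data known. The genes are Slc12a3, Pvalb, Trpm6, Calb1, Trpv5, Wnk4, Klhl3, Kcnj10, Slc8a1 and S100g. Of these, 9 had a row among the 22637 gene symbols of the count tables used here, and all 9 passed the filter on low counts that left 17315 genes. Klhl3, the substrate adaptor that marks WNK kinases for degradation, was not found under that symbol or an older one and is not analysed here.

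The libraries came from kidneys of 129X1/SvJ mice at 9 weeks of age. The 3 KO_antimiR21 libraries were Col4a3 -/- mice given antimiR-21, an inhibitor of the microRNA miR-21. The 3 KO_PBS libraries were Col4a3 -/- mice given PBS, and the 3 WT libraries were wild-type mice with no treatment, so KO_PBS against WT compares genotype together with injection. Col4a3 encodes a collagen chain of the glomerular basement membrane, and mice without it serve as a model of Alport syndrome, a hereditary kidney disease. No label states that each library is a separate animal, so p-values measure the spread between these libraries. By its sex, given below, WT 2 was not the same animal as WT 1 or WT 3.

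In the distal convoluted tubule, sodium and chloride enter through the thiazide-sensitive cotransporter NCC, which Slc12a3 encodes and which kinases of the WNK family control. Magnesium enters the same cells through the channel TRPM6. Calcium enters mainly in the late distal convoluted and connecting tubule through the channel TRPV5, is carried across the cell by calcium-binding proteins, and leaves on the blood side through a sodium-calcium exchanger and calcium pumps. The basolateral potassium channel of Kcnj10 sets the membrane voltage that NCC activity follows.

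Values below are CPM, a gene's count scaled to a common library total adjusted by the TMM method, and log2 fold changes are estimates ± SE from edgeR's quasi-likelihood test with Benjamini-Hochberg adjustment over all 17315 genes, with a threshold of 0.05. Total expected counts were 26448275 to 31786624 per library. Col4a3 itself stood at 70.6 to 138 CPM in KO_antimiR21, 44.3 to 94.3 CPM in KO_PBS and 257 to 371 CPM in WT, with no overlap between knockout and WT libraries. Y-linked transcripts marked WT 2 and the 6 knockout libraries as male, and WT 1 and WT 3 as female. The deposited names hold the letter F for WT 1 and WT 3 and M for WT 2, and no such letter for the knockout libraries. Each name also begins with a different number, whose meaning is not stated. They also carry a library code of unstated meaning. It was L5 for the KO_antimiR21 libraries and KO_PBS 3, and L4 for KO_PBS 1, KO_PBS 2 and the WT libraries.

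One WT library stood apart on these genes. In WT 1, 5 of the 9 genes were more than 2-fold above both other WT libraries, as were 154 (1.21%) of the 12689 genes averaging 4 CPM or more. Those 5 were Slc12a3 at 4.30 times the mean of the other 2 WT libraries, Slc8a1 at 4.11, Trpv5 at 3.09, Calb1 at 2.95 and Kcnj10 at 2.47 times. Summed markers of the thick ascending limb were also highest in WT 1 among WT libraries (7055, against 4459 and 5120 CPM), those of the proximal tubule too (13650, against 9767 and 10360 CPM), and those of collecting duct principal cells lowest (585, against 1253 and 1275 CPM). The part of tissue sampling in this was not tested. Values without WT 1 are therefore given beside the results on WT that it moves.

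Since the treated mice received an inhibitor of miR-21, its sequence and the matches of its seed in these genes are shown first. The mature form on the minus strand of chr11:86584120-86584141 (GRCm38.p6, from RefSeq) is given with the seed, bases 2 to 8, in capitals.
mmu-miR-21a-5p: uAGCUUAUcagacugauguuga
The complement of the seed, ATAAGCT, was found in 1107 (7.81%) of the longest 3' untranslated regions of 14178 tested genes, 81.9% of those tested. Of the 9 measured genes, Slc8a1 alone held it, once, in a region of 15586 bases, the longest of the 9. The shorter core TAAGCT, present in 26.1% of the genes searched, was found also in Slc12a3 and Kcnj10, and in none of Pvalb, Trpm6, Calb1, Trpv5, Wnk4 and S100g. Slc12a3 and Kcnj10 held 1 core each. Slc8a1 held 4, counting the match above, and 1 of the others was followed by A. Of Slc8a1 only the match to the full seed is shown. The matched bases are in capitals within their surroundings, read from GENCODE vM21 transcripts.
Slc8a1: gtggggggaaATAAGCTggtcaaggtca
Slc12a3: acatgagaactTAAGCTcctagcctaac
Kcnj10: caggaatgacgTAAGCTgtaaggtggac
A match is a description of the sequence and not evidence of binding.

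The first comparison asked how these genes stood in KO_PBS kidneys relative to WT kidneys. Of the 9 measured genes, 4 fell in KO_PBS and 0 rose, where 24.4% of all genes tested were called: the calcium-binding protein genes Pvalb, Calb1 and S100g, and the kinase gene Wnk4. Over all genes tested, 9.85% fell and 14.6% rose, 1705 and 2521 genes. With library size as the only scaling 904 genes fell and 3753 rose, with the median of all genes at 0.25, and 4 of the 9 genes fell and 0 rose. The genes of the entry channels Trpv5 and Trpm6, and of the cotransporter, were not called. The same 4 genes were lower in every KO_PBS library than in any WT library, and 0 of the 9 were higher without overlap. Over all genes tested 20.5% were lower in this way and 22.6% higher, 43.1% in all. The median log2 fold change of the 9 genes was -1.17, beside -0.03 for all genes tested. Without WT 1 the median of the 9 was -0.32, with the same 4 genes called lower and Trpv5 called higher. In that fit 2933 of all genes were called, 973 lower and 1960 higher. In whole-kidney RNA fewer cells of a type and less RNA per cell cannot be told apart.

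**Figure D1:**
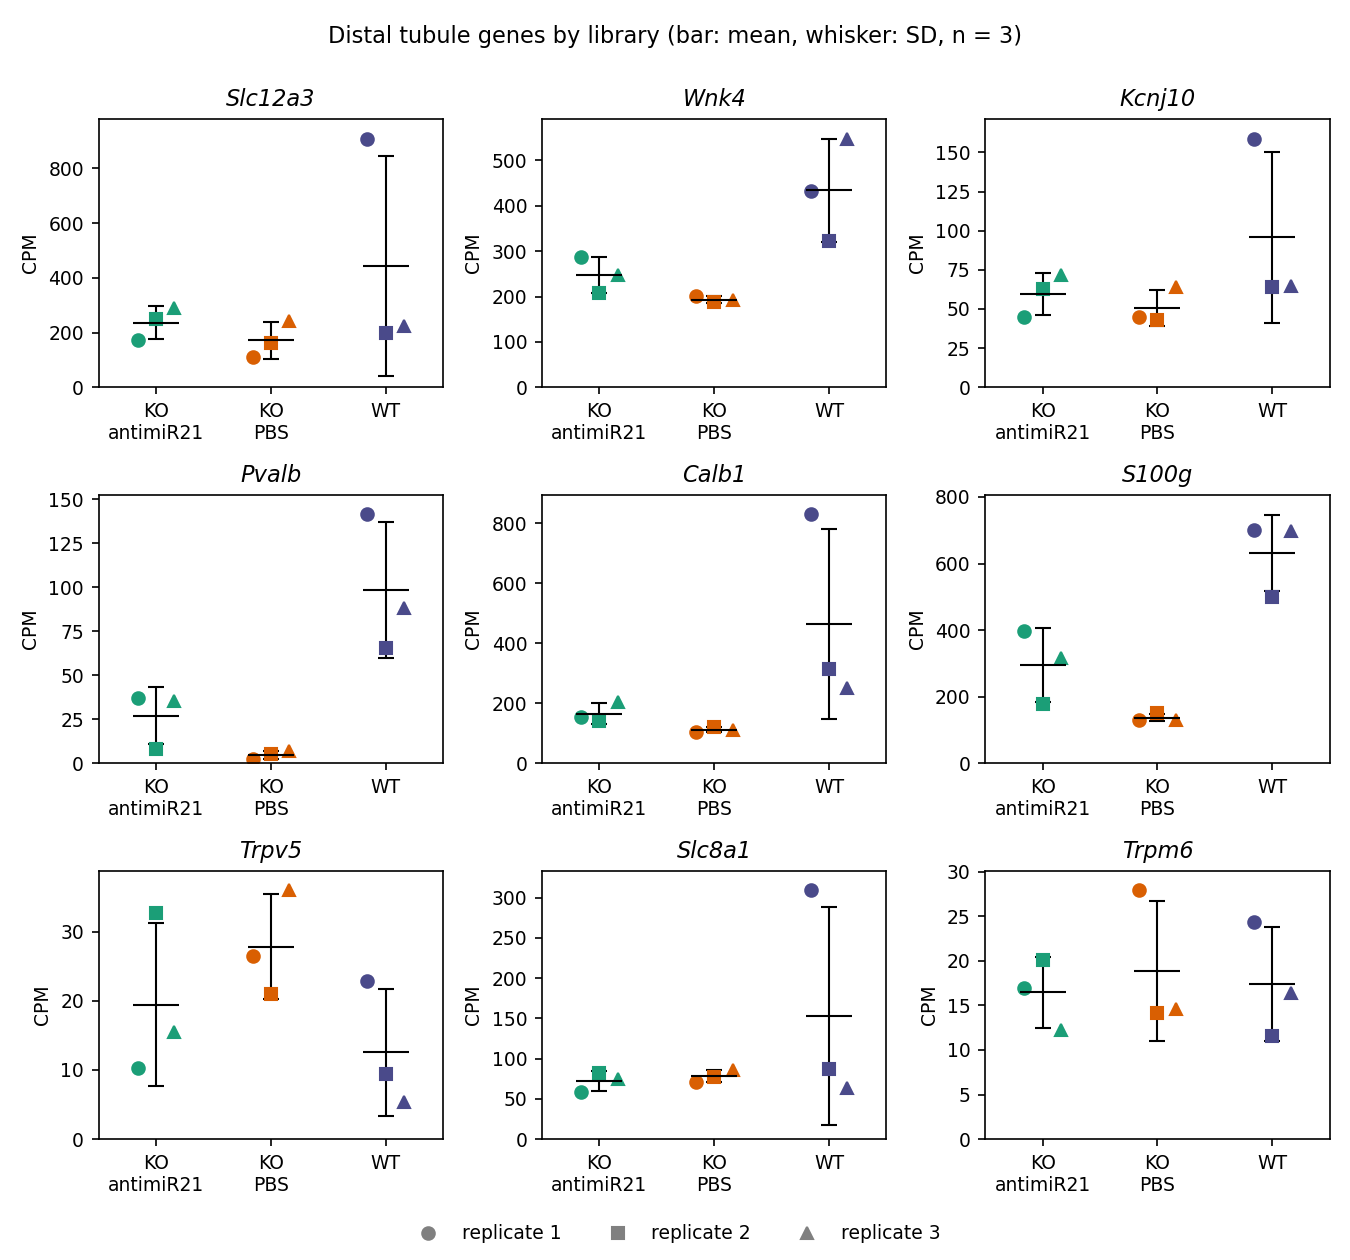
CPM of the 9 measured genes in each library, by group, with the group mean (bar) and SD (whisker, n = 3 per group), each panel on its own linear axis. Pvalb, Calb1, S100g and Wnk4 lay lower in every KO_PBS library than in any WT library, while WT 1 (circle) lay far above WT 2 and WT 3 for Slc12a3, Slc8a1, Calb1, Kcnj10 and Trpv5.

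Pvalb encodes parvalbumin, a cytosolic calcium buffer that marks the early distal convoluted tubule of the mouse. It had 2.33, 5.41 and 6.77 CPM in KO_PBS 1, 2 and 3, against 141, 65.7 and 88.0 CPM in WT 1, 2 and 3. The highest KO_PBS library was thus below the lowest WT library by a wide margin. The log2 fold change was -4.35 ± 0.65 (edgeR adjusted p = 0.0026), the largest of the 9 genes. It was -3.98 without WT 1 (edgeR adjusted p = 0.00963), while the fit of male libraries gave -3.74 (edgeR adjusted p = 0.0734), in which WT 2 is the only WT library and is taken to vary like the other groups. Parvalbumin is also abundant in fast skeletal muscle, whose 6 markers found here summed to at most 4.604 CPM in any library. That highest sum was in KO_PBS 1, above the 2.33 CPM of Pvalb there. Of 4 muscle markers tested 1 rose in KO_PBS and 0 fell, the riser being Tnni2 (2.75 ± 0.74, edgeR adjusted p = 0.0269). The part of muscle in the Pvalb values was not tested.

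S100g, which encodes calbindin-D9k, a small calcium carrier of transporting epithelia, had 131, 150 and 130 CPM in KO_PBS 1, 2 and 3, against 700, 499 and 697 CPM in WT 1, 2 and 3. The KO_PBS libraries lay close together, and the lowest WT library was the male one, as for Pvalb and Wnk4 but not for Calb1. The log2 fold change was -2.21 ± 0.29 (edgeR adjusted p = 0.00175), -2.11 without WT 1 (edgeR adjusted p = 0.00835) and -1.84 when the fit held male libraries alone (edgeR adjusted p = 0.0734). Calb1, which encodes calbindin-D28k, the carrier of late distal convoluted and connecting tubule cells, had 102, 120 and 112 CPM in KO_PBS 1, 2 and 3, against 830, 313 and 250 CPM in WT 1, 2 and 3. The groups did not overlap, and WT 1 lay far above its mates. Its log2 fold change was -2.06 ± 0.42 (edgeR adjusted p = 0.00905) with all libraries and -1.32 without WT 1 (edgeR adjusted p = 0.00821). When the fit held male libraries alone it was -1.47 (edgeR adjusted p = 0.0734).

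Wnk4 encodes the kinase that activates NCC through the downstream kinase SPAK. It had 201, 187 and 192 CPM in KO_PBS 1, 2 and 3, against 432, 322 and 548 CPM in WT 1, 2 and 3. The groups did not overlap, and WT 1 lay between its mates. The log2 fold change was -1.17 ± 0.21 (edgeR adjusted p = 0.00536), -1.15 without WT 1 (edgeR adjusted p = 0.0197) and -0.71 for male libraries alone (edgeR adjusted p = 0.126). With sex as a covariate 0 genes of the whole table passed in this comparison, and for male libraries alone also 0, so each edgeR call given above and below for KO_PBS against WT is lost in those fits.

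The promoters of 3 of the genes that fell are shown, as 250 bases before and 50 bases after the annotated start, on the gene's strand (RefSeq, GRCm38.p6). The table holds no entry for Calb1 and a second one for Pvalb, chr15:78204188-78204487, with a G and C content of 67.7% and none of the motifs below. Searched on both strands were the TATA box TATAAA, the nuclear receptor half-site AGGTCA and the HNF1 half-site GTTAAT, which occur in 13.6%, 16.3% and 7.10% of 32851 promoters. Matches are in capitals.
Pvalb, chr15:78206351-78206650, minus strand, no match:
Pvalb: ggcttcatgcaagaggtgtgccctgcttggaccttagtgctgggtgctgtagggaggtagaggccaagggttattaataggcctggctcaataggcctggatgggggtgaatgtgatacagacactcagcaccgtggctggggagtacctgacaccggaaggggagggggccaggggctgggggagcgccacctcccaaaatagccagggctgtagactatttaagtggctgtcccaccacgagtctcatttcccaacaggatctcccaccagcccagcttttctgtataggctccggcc
S100g, chrX:162964550-162964849, minus strand:
S100g: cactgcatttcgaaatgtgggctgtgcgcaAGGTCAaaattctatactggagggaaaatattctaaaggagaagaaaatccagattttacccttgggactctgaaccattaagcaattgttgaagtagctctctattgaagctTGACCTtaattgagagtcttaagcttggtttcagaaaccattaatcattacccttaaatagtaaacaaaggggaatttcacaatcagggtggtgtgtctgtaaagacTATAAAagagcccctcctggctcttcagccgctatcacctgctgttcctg
Wnk4, chr11:101260317-101260616, plus strand, no match:
Wnk4: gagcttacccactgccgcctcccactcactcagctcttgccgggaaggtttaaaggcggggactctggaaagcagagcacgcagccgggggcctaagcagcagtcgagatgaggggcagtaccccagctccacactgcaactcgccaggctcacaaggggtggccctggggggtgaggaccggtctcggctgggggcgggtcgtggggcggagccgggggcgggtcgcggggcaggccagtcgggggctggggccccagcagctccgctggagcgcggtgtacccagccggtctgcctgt
S100g held a TATA box that begins at the annotated start, and 2 half-sites AGGTCA, 1 on each strand. In the order printed, the G and C content was 58.3%, 41.0% and 70.7%, beside a median of 52.7% over the promoters. Slc12a3 held a TATA box beginning 32 bases before its start and Trpv5 1 beginning 43 bases before, and GTTAAT was in none of the 9 genes with an entry.

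Slc12a3 was not called in KO_PBS. It had 110, 162 and 243 CPM in KO_PBS 1, 2 and 3, against 909, 198 and 225 CPM in WT 1, 2 and 3. KO_PBS 3 was above 2 of the WT libraries, and WT 1 stood alone at the top. The log2 fold change of -1.37 ± 0.58 (edgeR adjusted p = 0.119) became -0.28 without WT 1 (edgeR adjusted p = 0.612). DESeq2 called it with all libraries (-1.37, DESeq2 adjusted p = 0.0432). Kcnj10, which encodes the basolateral potassium channel Kir4.1, had 44.8, 43.1 and 64.2 CPM in KO_PBS 1, 2 and 3, against 159, 64.0 and 64.5 CPM in WT 1, 2 and 3. Its log2 fold change was -0.92 ± 0.37 (edgeR adjusted p = 0.102), and -0.32 without WT 1. Slc8a1, which encodes the sodium-calcium exchanger NCX1, had 71.4, 76.6 and 85.8 CPM in KO_PBS 1, 2 and 3, against 309, 86.5 and 64.0 CPM in WT 1, 2 and 3. Its log2 fold change of -0.97 ± 0.51 (edgeR adjusted p = 0.199) turned to 0.07 without WT 1. For all 3 genes the groups overlapped.

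The genes of the entry channels were not called. Trpv5, the calcium channel, had 26.4, 21.03 and 36.0 CPM in KO_PBS 1, 2 and 3, against 22.8, 9.42 and 5.35 CPM in WT 1, 2 and 3. KO_PBS 2 lay just below WT 1, and the other KO_PBS libraries lay above all WT libraries. The log2 fold change was 1.15 ± 0.56 (edgeR adjusted p = 0.173) with all libraries, and 1.93 without WT 1 (edgeR adjusted p = 0.0391), and its adjusted p ran from 0.0391 to 0.372 over the alternatives. Trpm6, the magnesium channel, had 27.9, 14.2 and 14.6 CPM in KO_PBS 1, 2 and 3, against 24.3, 11.6 and 16.4 CPM in WT 1, 2 and 3. Its groups overlapped, at 0.12 ± 0.35 (edgeR adjusted p = 0.849), and at 0.46 without WT 1, -0.08 without WT 2 and -0.29 without KO_PBS 1.

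**Figure D2:**
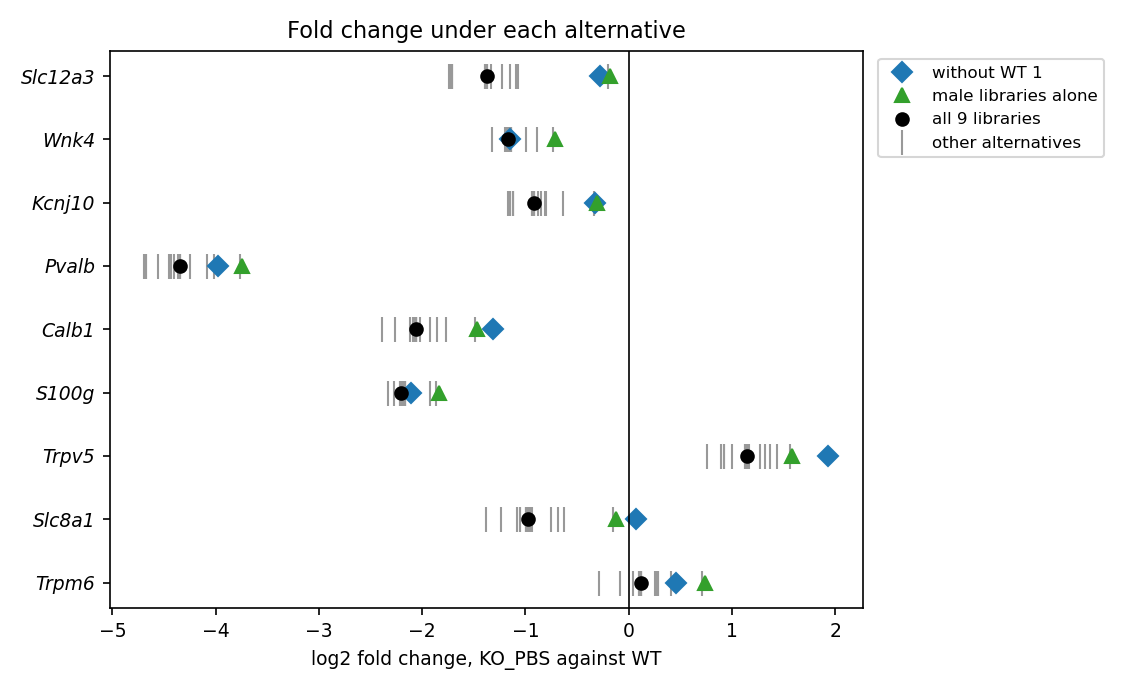
log2 fold change of each gene in KO_PBS against WT with all 9 libraries (black), without WT 1 (blue diamond), among male libraries alone (green triangle) and under the other alternatives (grey ticks). Values without WT 1 stayed at -3.98 for Pvalb, -2.11 for S100g, -1.32 for Calb1 and -1.15 for Wnk4, and stood at -0.28 for Slc12a3, -0.32 for Kcnj10 and 0.07 for Slc8a1.

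The genes were also set against Slc12a3 within each library, where the scaling of the library cancels. This asked whether genes of the same segments moved unequally. The log2 ratio of Pvalb to Slc12a3 was -5.55, -4.90 and -5.16 in KO_PBS 1, 2 and 3, against -2.69, -1.59 and -1.35 in WT 1, 2 and 3. That of Trpv5 was -2.05, -2.95 and -2.76 in KO_PBS, against -5.31, -4.39 and -5.39 in WT. For both genes the groups did not overlap, and the differences had opposite signs, -3.33 for Pvalb and 2.45 for Trpv5. The exact two-sided permutation p was 0.1 for each, the smallest that 3 against 3 libraries can give, and 0.32 adjusted over the 8 ratios. Calb1 stood at -0.78 and S100g at -1.12 relative to Slc12a3, with overlapping groups and exact permutation p of 0.2 and 0.3. Wnk4 stood at -0.06, with an exact permutation p of 1. For Calb1, S100g and Wnk4 the lowest WT ratio was that of WT 1. The ratio of Wnk4 was -1.07 in WT 1, 0.70 in WT 2 and 1.29 in WT 3. In KO_PBS 1, 2 and 3 it was 0.87, 0.21 and -0.34. That of S100g was -0.38 in WT 1, 1.335 in WT 2 and 1.63 in WT 3, and 0.25, -0.11 and -0.90 in KO_PBS. Without WT 1 the groups of Calb1 and S100g did not overlap, while those of Wnk4 did. Without WT 1, 4 of the 8 ratios had groups that did not overlap, and without KO_PBS 3 also 4, beside 2 with all libraries. Groups of fewer libraries separate more easily, so these counts are not like for like. All 8 ratios also share Slc12a3, and the share over all genes was not counted.

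**Figure D3:**
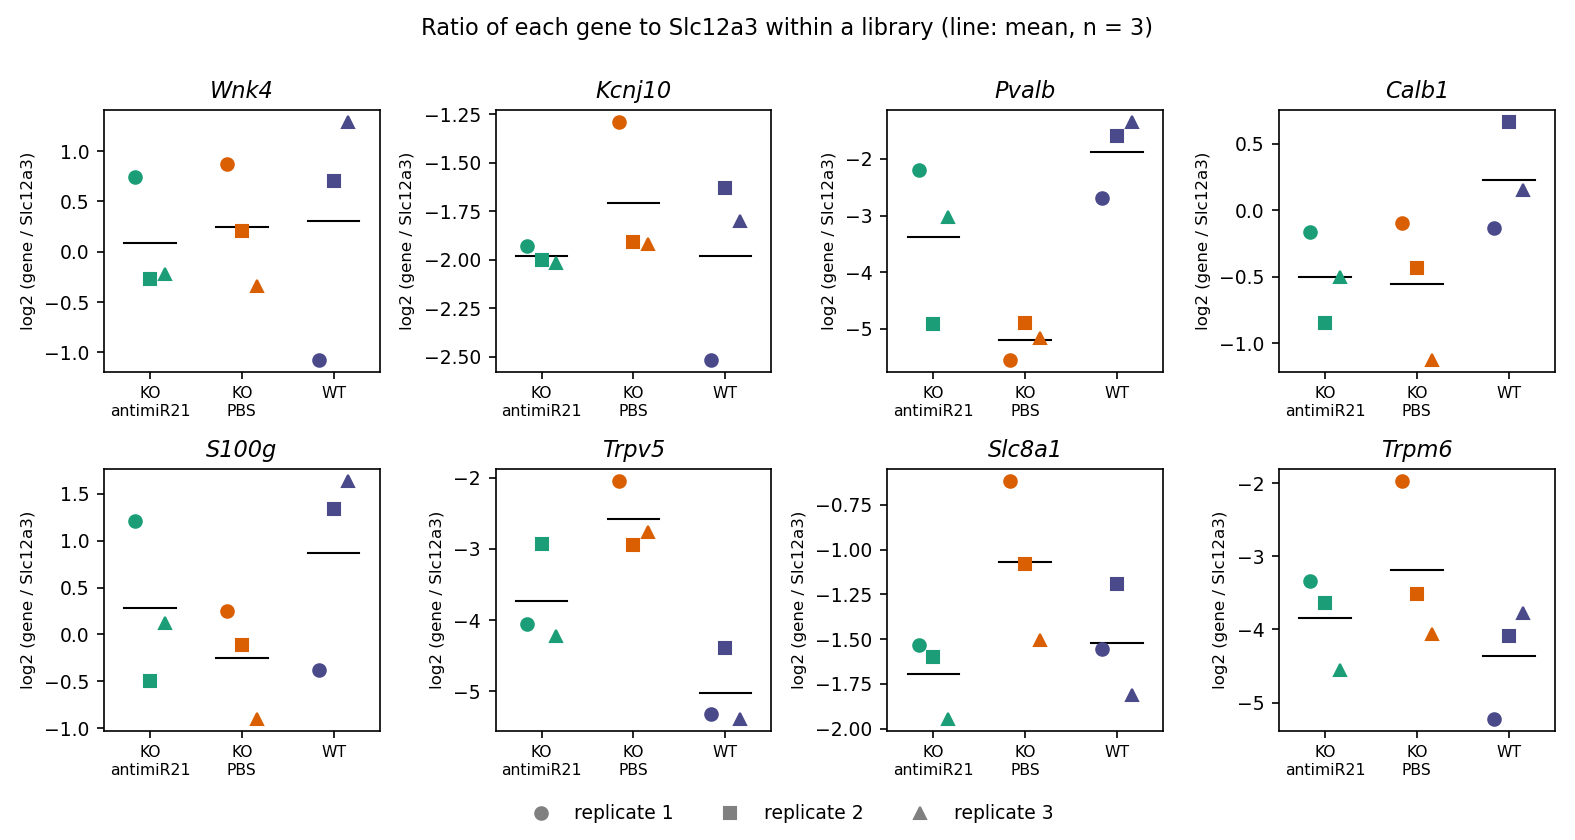
log2 ratio of each gene to Slc12a3 in the same library, by group, with the group mean as a line (n = 3 per group). Pvalb lay between -5.55 and -4.90 in KO_PBS and between -2.69 and -1.35 in WT, and Trpv5 between -2.95 and -2.05 in KO_PBS and between -5.39 and -4.39 in WT.

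The second comparison asked how the genes stood in KO_antimiR21 kidneys relative to KO_PBS kidneys. Of the 9, edgeR called 0, as it did 0% of all genes tested, with 1203 genes (6.95%) at an unadjusted p under 0.05. Of the 9 genes 2 had such an unadjusted p, Pvalb and S100g. DESeq2 called 19 genes in all, with Pvalb the 1 among the 9. The median of the 9 log2 fold changes was 0.36, beside -0.01 for all genes tested.

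Pvalb had 37.3, 8.25 and 35.6 CPM in KO_antimiR21 1, 2 and 3, against 2.33, 5.41 and 6.77 CPM in KO_PBS 1, 2 and 3. Every KO_antimiR21 library was above every KO_PBS library, but KO_antimiR21 2 only just. The log2 fold change was 2.48 ± 0.60 (edgeR adjusted p = 0.707 and DESeq2 adjusted p = 0.0119), and its adjusted p ran from 0.0119 to 1 over the alternatives. S100g had 396, 177 and 315 CPM in KO_antimiR21 1, 2 and 3, against 131, 150 and 130 CPM in KO_PBS 1, 2 and 3. Again the groups did not overlap and KO_antimiR21 2 was nearest to KO_PBS, at 1.11 ± 0.28 (edgeR adjusted p = 0.707). Calb1 had 153, 139 and 204 CPM in KO_antimiR21, against 102, 120 and 112 CPM in KO_PBS, with a log2 fold change of 0.57 ± 0.40. Wnk4 had 287, 208 and 247 CPM in KO_antimiR21, against 201, 187 and 192 CPM in KO_PBS, with a log2 fold change of 0.36 ± 0.21. For these 4 genes the KO_antimiR21 libraries lay above the KO_PBS libraries without overlap, as they did for 3.83% of all genes tested, while 6.85% were lower without overlap, 10.7% in all.

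The other 5 genes overlapped between the knockout groups. Slc12a3 had 171, 251 and 289 CPM in KO_antimiR21 1, 2 and 3, against 110, 162 and 243 CPM in KO_PBS 1, 2 and 3, at 0.46 ± 0.57. Among the libraries of code L5 alone, 3 KO_antimiR21 against KO_PBS 3, that value was -0.04. Kcnj10 had 44.8, 62.5 and 71.4 CPM in KO_antimiR21 (0.23 ± 0.36), and Slc8a1 had 59.0, 82.5 and 74.9 CPM (-0.11 ± 0.50). Trpv5 had 10.2, 32.7 and 15.5 CPM in KO_antimiR21 1, 2 and 3, where 2 libraries were below and 1 within the KO_PBS range (-0.51 ± 0.55). Trpm6 had 17.0, 20.1 and 12.3 CPM in KO_antimiR21 (-0.20 ± 0.35). Within KO_antimiR21, replicate 2 was thus the lowest for Pvalb, S100g, Calb1 and Wnk4 and the highest for Trpv5, Trpm6 and Slc8a1. In the same library the summed proximal tubule markers were lowest of the group, at 3700, against 6628 and 7840 CPM in KO_antimiR21 1 and 3, and the part of that in these values was not tested.

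**Figure D4:**
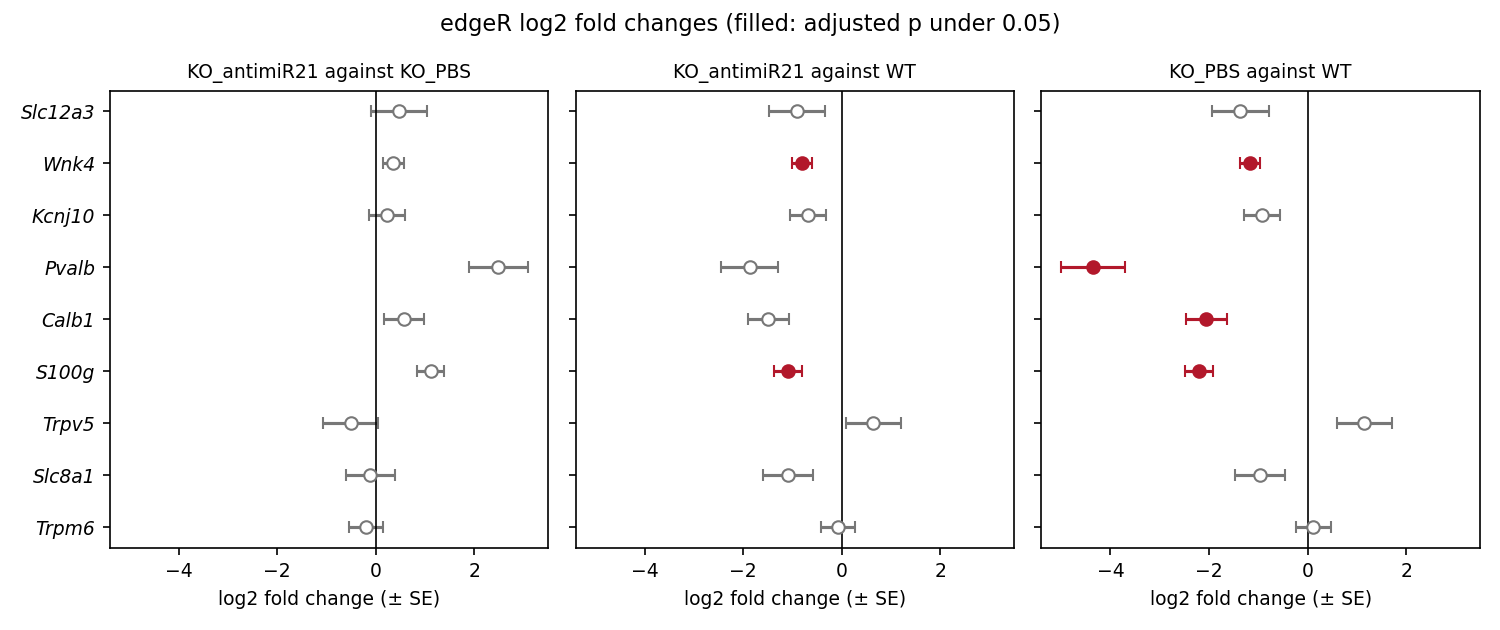
edgeR log2 fold changes with SE for the 9 genes in each comparison, filled where the adjusted p was under 0.05. In KO_PBS against WT 4 genes were lower, in KO_antimiR21 against WT 2 were lower, and in KO_antimiR21 against KO_PBS 0 were called.

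The third comparison set KO_antimiR21 kidneys against WT kidneys, which share the WT libraries with the first. Wnk4 and S100g fell, 2 of the 9 genes, where 7.15% of all genes tested were called, 0.427% lower and 6.72% higher. Both stood at the threshold: Wnk4 at -0.81 ± 0.21 and S100g at -1.10 ± 0.28, each with an edgeR adjusted p of 0.0499. Without WT 1 the adjusted p was 0.138 for Wnk4 and 0.153 for S100g. Leaving out any 1 library other than WT 2 ended the call of Wnk4, and any 1 other than KO_antimiR21 1 that of S100g. The adjusted p over the alternatives ran from 0.00288 to 0.663 for Wnk4 and from 0.00237 to 0.563 for S100g. Calb1 stood at -1.49 ± 0.41 (edgeR adjusted p = 0.0664), and at -0.74 without WT 1 (edgeR adjusted p = 0.0829). Pvalb stood at -1.86 ± 0.58 (edgeR adjusted p = 0.101). All KO_antimiR21 libraries were below all WT libraries for Pvalb, Calb1, S100g and Wnk4, as for 9.83% of all genes, within 24.5% that did not overlap in either direction. Slc12a3 stood at -0.91 ± 0.57, and at 0.19 without WT 1. Side by side, the log2 fold change against WT was -4.35 in KO_PBS and -1.86 in KO_antimiR21 for Pvalb. For S100g it was -2.21 in KO_PBS and -1.10 in KO_antimiR21. KO_antimiR21 and WT share no library code, so code and group cannot be told apart between these libraries. With the code as a covariate, which rests on the KO_PBS libraries of both codes, 0 of all genes were called.

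Genes that act with these were read from 5 lists. They were chosen with earlier results of these data known. In KO_PBS against WT 9.85% of all genes tested fell and 14.6% rose, 24.4% in all, to set beside each list's counts. Of 9 tested genes of the WNK-SPAK control of NCC, 2 fell and 0 rose in KO_PBS against WT, with a median log2 fold change of -0.39. Ppp1r1a, an inhibitor of protein phosphatase 1, fell to 31.8, 53.8 and 47.4 CPM in KO_PBS, against 192, 157 and 296 CPM in WT (-2.28 ± 0.34, edgeR adjusted p = 0.00264). Cab39l, a paralogue of the scaffold protein that activates SPAK, fell by 0.99 on the log2 scale (edgeR adjusted p = 0.00913). Wnk1 was at -0.86 ± 0.33 (edgeR adjusted p = 0.0892), and at -0.39 without WT 1.

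Of 10 genes of basolateral transport and magnesium handling, 6 fell and 0 rose, with a median of -0.75. Bsnd, the barttin subunit of basolateral chloride channels, had 28.3, 28.7 and 45.5 CPM in KO_PBS, against 115, 94.2 and 91.3 CPM in WT (-1.55 ± 0.26, edgeR adjusted p = 0.00404). Fxyd2, a subunit of the sodium pump, fell by 1.06 on the log2 scale (edgeR adjusted p = 0.0126). Egf, the precursor of a growth factor that stimulates TRPM6, had 11.95, 108 and 122 CPM in KO_PBS, against 1808, 694 and 760 CPM in WT (-3.76 ± 0.87, edgeR adjusted p = 0.0158), and stood at -3.16 without WT 1 (edgeR adjusted p = 0.041). Without WT 1 the list had 3 genes that fell, and with library size as the only scaling 3 fell and 1 rose.

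Of 9 genes of calcium transport and its hormones, 2 fell and 1 rose. Klk1, tissue kallikrein of the connecting tubule, had 146, 195 and 163 CPM in KO_PBS, against 672, 416 and 661 CPM in WT (-1.80 ± 0.34, edgeR adjusted p = 0.00724). Trpv6, the closest relative of Trpv5, rose to 28.5, 16.4 and 11.4 CPM in KO_PBS, against 3.59, 7.46 and 8.69 CPM in WT (1.51 ± 0.41, edgeR adjusted p = 0.0281). The groups did not overlap for Trpv6, but its call was lost without WT 1 (1.24, edgeR adjusted p = 0.0677), and also without WT 2, KO_PBS 1 or KO_PBS 2. Its adjusted p ran from 0.00196 to 0.244 over all its alternatives. Vdr, the vitamin D receptor, stood at the threshold (-0.78 ± 0.25, edgeR adjusted p = 0.0495), and at -0.44 without WT 1 (edgeR adjusted p = 0.147). Its adjusted p ran from 0.0168 to 0.336 over its alternatives, and leaving out any 1 library other than WT 3 ended the call. Without WT 1 the list had 1 gene that fell and 0 that rose, with a median of 0.15, where all libraries gave -0.74.

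Of 7 genes of aldosterone-sensitive transport, 2 fell and 0 rose, with a median of -0.61. Kcnj1, the apical potassium channel ROMK, fell by 1.36 on the log2 scale (edgeR adjusted p = 0.00392), and Scnn1a, the alpha subunit of the epithelial sodium channel, by 0.61 (edgeR adjusted p = 0.029, and 0.112 without WT 1). The call of Scnn1a was also lost without WT 3, KO_PBS 2 or KO_PBS 3. Hsd11b2, the enzyme that keeps glucocorticoids from the mineralocorticoid receptor, was at -0.63 ± 0.21 (edgeR adjusted p = 0.0584). Of 7 transcription factors of the distal nephron and its development, 4 fell and 0 rose, with a median of -0.89. Sim1, a bHLH-PAS factor, had 11.5, 12.4 and 12.8 CPM in KO_PBS, against 32.0, 37.7 and 43.5 CPM in WT (-1.62 ± 0.17, edgeR adjusted p = 0.00135). It was at 18.9, 16.2 and 22.4 CPM in KO_antimiR21, below every WT library and above every KO_PBS library (against WT -0.98 ± 0.16, edgeR adjusted p = 0.00873). Pou3f3, a POU-domain factor of the distal nephron, was at -1.013 ± 0.15 (edgeR adjusted p = 0.00273), and Tfap2b, an AP-2 factor, at -0.89 ± 0.19 (edgeR adjusted p = 0.0126). Without WT 1, 5 of the 7 factors fell, and with library size as the only scaling 3, Tfap2b no longer among them. That scaling also left 1 gene called lower in the aldosterone list and 1 in the calcium list. In KO_antimiR21 against KO_PBS 0 genes of these 5 lists were called by edgeR or by DESeq2.

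**Figure D5:**
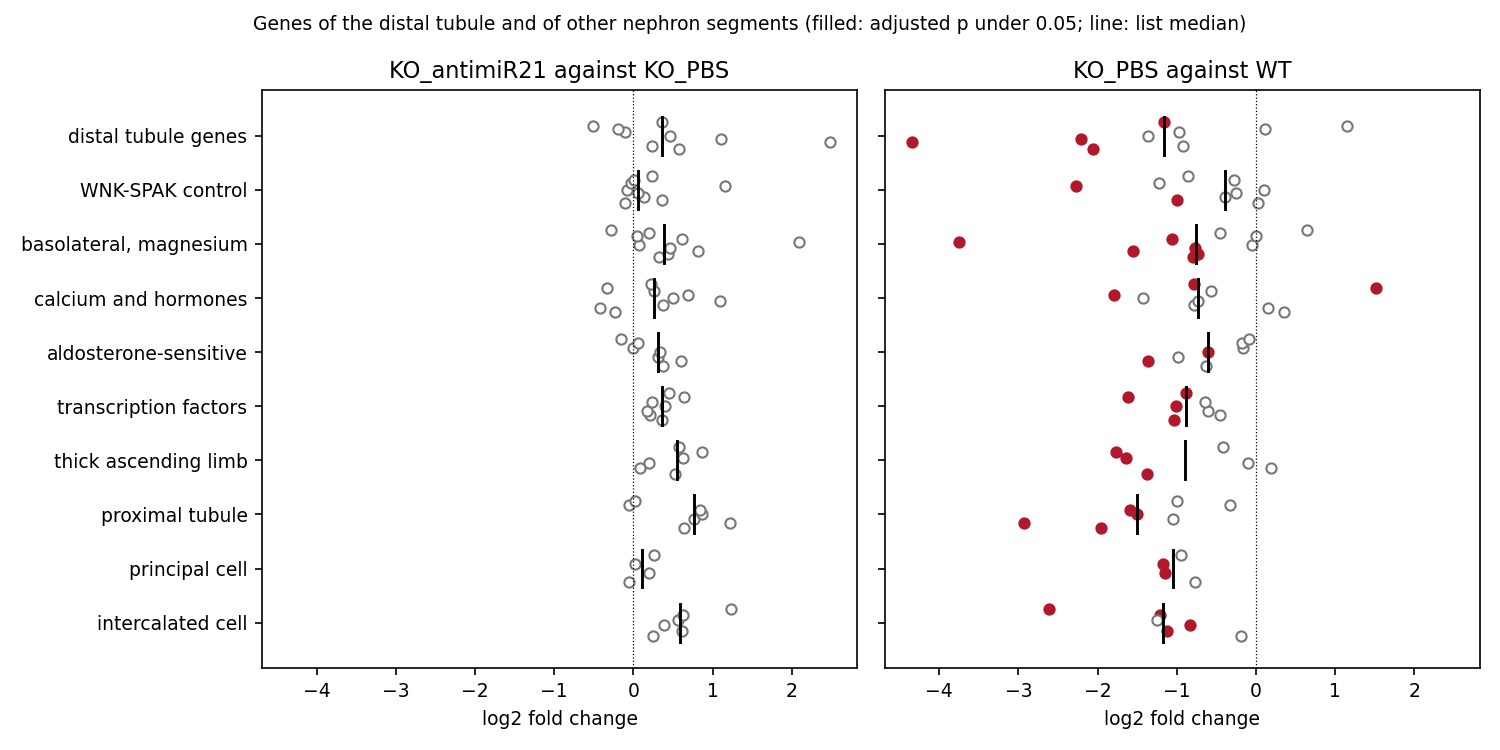
log2 fold change of each tested gene of the distal tubule set, of 5 lists of related genes and of markers of 4 other nephron cell types, in KO_antimiR21 against KO_PBS (left) and KO_PBS against WT (right), filled where the edgeR adjusted p was under 0.05, with the list median as a line. In KO_PBS against WT every list median was below 0, from -0.39 to -1.50, and in KO_antimiR21 against KO_PBS every median was above 0, from 0.06 to 0.77.

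Markers of other cell types were read in KO_PBS against WT too, where 9.85% of all genes tested fell and 14.6% rose. Of 7 proximal tubule markers 4 fell, of 6 thick ascending limb markers 3, of 4 principal cell markers 2 and of 6 intercalated cell markers 4, with medians of -1.50, -0.90, -1.05 and -1.17, beside -1.17 for the 9 distal tubule genes. Without WT 1 the counts were 1 for the proximal tubule, 3 for the thick ascending limb, 4 for principal cells and 2 for intercalated cells, and with library size as the only scaling they were 4, 3, 1 and 3 in that order. Of all genes 973 fell without WT 1 and 904 with that scaling, beside 1705 in the main fit. Medians without WT 1 were -1.36 for the proximal tubule, -0.72 for the thick ascending limb, -1.25 for principal cells and -1.03 for intercalated cells. That of the 9 distal tubule genes was then -0.32. Of 5 podocyte markers 0 were called, with a median of 0.04, and of 5 endothelial markers 1 fell, with a median of -0.56. Of 6 macrophage markers 5 rose and of 5 T cell markers 5, and the summed macrophage markers were 568 to 718 CPM in KO_PBS, against 157 to 188 CPM in WT. The summed distal tubule genes were 981 to 1264 CPM in KO_antimiR21, 716 to 884 CPM in KO_PBS and 1569 to 3527 CPM in WT. Markers of fibroblasts summed to 410 to 848 CPM in KO_antimiR21, 1410 to 1797 CPM in KO_PBS and 205 to 252 CPM in WT. Slc8a1 is also active in heart and smooth muscle, and of 7 markers of these 2 rose and 1 fell, with sums of 287 to 550 CPM in KO_PBS, against 111 to 130 CPM in WT. The part of these other cells in the values of the distal tubule genes was not tested.

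Libraries of 1 group also differed in how the genes went together. After each gene's group mean was taken off, Slc12a3 varied over the 9 libraries with Kcnj10 (r = 0.965), Slc8a1 (r = 0.910), Calb1 (r = 0.866) and Trpv5 (r = 0.742), and S100g with Pvalb (r = 0.820) and Wnk4 (r = 0.748). Between Slc12a3 and S100g r was 0.08. Without WT 1 the values with Slc12a3 were 0.870 for Kcnj10, 0.559 for Slc8a1, 0.322 for Calb1 and 0.399 for Trpv5. The genes outside the set with the highest r to Slc12a3 were Spire1 (0.990), Lipa (0.981), Slc9a2 (0.978), Spbc25 (0.974) and Itpr2 (0.974), and from 0.923 to 0.965 without WT 1. These are descriptions over 9 libraries, in each of which all genes share the same depth and tissue sample. Lipa, Slc9a2 and Spbc25 were also among the 5 highest with library size as the only scaling. Slc9a2, a sodium-proton exchanger, had 18.5, 20.8 and 25.1 CPM in KO_antimiR21, 11.8, 17.9 and 20.7 CPM in KO_PBS and 57.7, 25.6 and 25.9 CPM in WT, with WT 1 again the highest.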

How the data were processed

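Kidney RNA was isolated by miREASY kit, and TruSeq v2 libraries used an input of 150 ng, per the labels' protocols. The authors deposited expected counts per gene symbol for each library, made with Bowtie and RSEM on mm9, per the submitters' processing notes, and 1 log2 matrix of the 9 libraries, with limma named there. Versions, annotation and strand are not given in the sources used here. Without strand, reads of overlapping or antisense genes cannot be told apart. Each column of the deposited log2 matrix equalled log2 CPM of the counts plus 1 constant per library.

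Expected counts were rounded, filtered with filterByExpr and fitted in edgeR 4.0.16 (R 4.3.3) with TMM and 3 group means over all 9 libraries, and tested by the quasi-likelihood F test, two-sided. The fit was run on counts simulated from its own estimates of spread. That cannot show how it handles a library that stands apart, such as WT 1. Alternatives used DESeq2 1.42.0, limma 3.58.1 on the deposited matrix, and other scalings, filters and samples. Log2 ratios to Slc12a3 used a prior count of 0.5, and exact permutation tests adjusted over 8 ratios. A library was called male at a Y-linked sum of at least 10 CPM. The chi-square per gene between libraries of a group was at least 29.5, so none were copies. Deviations of same-numbered libraries from their group means correlated at -0.311 to 0.403, below 0.1 in 6 of 9 pairs, so the numbers were not taken to pair them.

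The members and lists were chosen with earlier results of these data known. The text names all members and the 3 genes of each related list with the lowest p in KO_PBS against WT. Genes most like Slc12a3 were the 5 others, of a mean log2 CPM of 2 or more, with the highest Pearson r. Older symbols were matched for Sgk1 (Sgk), Pth1r (Pthr1), Tfap2b (Tcfap2b) and Adgre1 (Emr1).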

Additional observations from a re-analysis of the deposited data

How the results depend on the processing

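For KO_PBS against WT, 4 of the 9 distal tubule genes and 4226 of all genes were called. With sex as a covariate the counts were 0 and 0, and with male libraries only 0 and 0, and the cause was not tested. Sex and genotype overlap here because both female libraries are WT. In both of these fits the fold changes against WT therefore rest on WT 2 alone for the WT group. They are not separate checks: Pvalb, for example, stood at -3.77 with sex as a covariate and -3.74 with male libraries only. Leaving out 1 library at a time gave 4 to 5 of the 9 genes and 2423 to 4332 of all genes, the lowest being 2423 without KO_PBS 1 and 2584 without KO_PBS 2. With the libraries of code L4 alone Calb1 was at -2.06 (edgeR adjusted p = 0.0595), which left 3 of the 9 genes called. For KO_antimiR21 against KO_PBS, where edgeR called 0 and 0, DESeq2 called 1 of the 9 and 19 of all genes. For KO_antimiR21 against WT, 2 of the 9 and 1238 of all genes were called. Of the 9, DESeq2 called 4 and library size as the only scaling 1. With no filter, the 2 groups alone, sex or library code as a covariate, or male libraries only, 0 of the 9 were called. Leaving out 1 library gave 0 to 1 of the 9 and 667 to 1602 of all genes, with 667 without WT 3, 679 without KO_antimiR21 2, 758 without WT 1 and 795 without KO_antimiR21 1. Of all genes DESeq2 called 2011 and the 2 groups alone 707, and sex or library code as a covariate, or male libraries only, 0. Same-numbered libraries shared only a number: correlations of their deviations ran from -0.311 to 0.403. With a replicate block 4 of the 9 genes were called for KO_PBS against WT, 0 for KO_antimiR21 against KO_PBS and 0 for KO_antimiR21 against WT, where all genes gave 3205, 0 and 923. The number of ratios to Slc12a3 without overlap, 2 in each comparison, was 2 to 4, 2 to 4 and 2 to 5 when 1 library was left out, with the comparisons in the same order. Groups of fewer libraries separate more easily, so these counts are not like for like.

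Some values that were not called changed sign, and the cause was not tested. For KO_antimiR21 against KO_PBS, with library code as a covariate or 1 code only, Slc12a3 was at -0.039 in both fits, Kcnj10 at -0.11 in both and Trpm6 at 0.18 in both. When 1 library was left out, Trpm6 ran from -0.37 to 0.22 and Slc8a1 from -0.20 to 0.014. For KO_PBS against WT, leaving out 1 library gave -0.29 to 0.46 for Trpm6 and -1.38 to 0.071 for Slc8a1. For KO_antimiR21 against WT, Slc12a3 was at 0.26 with sex as a covariate and 0.29 with male libraries only, and ran from -1.24 to 0.19 when 1 library was left out. Trpm6 was at 0.087 with library size only, 0.51 with sex as a covariate, 0.55 with male libraries only and 0.45 with library code as a covariate, and ran from -0.28 to 0.27 when 1 library was left out. A fit within 1 library code could not be made for KO_antimiR21 against WT, which share none.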
